A study of Mus musculus with 12 samples.

Results

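The genes described here are 35 mouse genes of glycolysis, lactate and pyruvate handling, with Txnip and its regulators, chosen by gene name. They were read from the peak lists of H4K8ac, acetylation of lysine 8 on histone H4, in oligodendrocyte progenitor cells (OPCs), the glial cells that divide and give rise to myelin-forming oligodendrocytes. Rows whose gene name was one of the 35 were kept from each list. Peaks were assigned to 34 of them, out of 23433 gene names in the lists, and Pfkl had none.

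All libraries came from the forebrain of mice with the genotype PdgfrαH2BEGFP, in which a nuclear green fluorescent protein marks cells that use the Pdgfra gene, and the cells were sorted on this reporter. Neonatal OPCs were taken at postnatal day 5 and adult OPCs at postnatal day 60, with 3 H4K8ac libraries at each age that the labels call biological replicates. The labels do not say whether animals were pooled, and the 6 input libraries were not analysed here. A difference in a sorted population can come from more cells that carry the mark or from more of it per cell, and these cannot be told apart.

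Glycolysis turns glucose into pyruvate in the cytosol, and pyruvate is then reduced to lactate, exported or taken into mitochondria, where the pyruvate dehydrogenase complex feeds it to respiration. Monocarboxylate transporters move lactate and pyruvate across membranes, and lactate exchange between oligodendrocyte lineage cells and axons is a known feature of white matter. Txnip and its paralog Arrdc4 are arrestin-domain proteins that restrain glucose uptake, and their promoters are classical targets of the glucose-sensing factors Mlxip and Mlxipl, which bind paired E-boxes together with Mlx. Acetylated H4 lysine 8 is found at active promoters and enhancers.

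Promoter windows of 300 bases, from 250 bases before to 50 after the annotated start, are shown 5′ to 3′ on the coding strand from RefSeq on GRCm38.p6. Txnip and Arrdc4 are shown as the pair of glucose-responsive arrestin genes, Hk2 and Pgk1 as the genes with promoter peaks in adult libraries only, Pdk4 as a window that was covered whole in every adult library and in no neonatal one, and Slc16a1 as a window that was covered whole in neonatal replicate 2 and in every adult library. Capitals mark CACGNG (an E-box or one arm of a carbohydrate response element), ACGTG (the hypoxia response core, contained in CACGTG) and CCAAT (the NF-Y box), each searched on both strands. The windows were Txnip at chr3:96557707-96558006 on the plus strand, Arrdc4 at chr7:68749189-68749488 on the minus strand, Hk2 at chr6:82774405-82774704 on the minus strand, Pgk1 at chrX:106186850-106187149 on the plus strand, Pdk4 at chr6:5496229-5496528 on the minus strand and Slc16a1 at chr3:104638414-104638713 on the plus strand.
Txnip: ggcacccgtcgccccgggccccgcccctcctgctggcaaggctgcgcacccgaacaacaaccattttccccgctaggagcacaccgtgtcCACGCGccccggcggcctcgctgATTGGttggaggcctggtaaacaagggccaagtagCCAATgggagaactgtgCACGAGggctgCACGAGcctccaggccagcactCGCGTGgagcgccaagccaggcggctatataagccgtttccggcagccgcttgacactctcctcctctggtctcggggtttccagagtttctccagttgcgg
Arrdc4: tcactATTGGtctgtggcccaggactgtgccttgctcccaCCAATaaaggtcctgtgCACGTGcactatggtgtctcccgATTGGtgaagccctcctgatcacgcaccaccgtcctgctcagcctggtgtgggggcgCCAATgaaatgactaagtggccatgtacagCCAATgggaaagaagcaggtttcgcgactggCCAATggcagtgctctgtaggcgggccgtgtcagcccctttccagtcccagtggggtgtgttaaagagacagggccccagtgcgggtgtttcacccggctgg
Hk2: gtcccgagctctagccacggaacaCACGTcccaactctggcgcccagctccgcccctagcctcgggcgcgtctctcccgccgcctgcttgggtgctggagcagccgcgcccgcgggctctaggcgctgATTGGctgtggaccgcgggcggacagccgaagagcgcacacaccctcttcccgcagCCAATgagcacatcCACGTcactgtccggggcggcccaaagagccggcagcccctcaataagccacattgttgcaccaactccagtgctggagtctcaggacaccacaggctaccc
Pgk1: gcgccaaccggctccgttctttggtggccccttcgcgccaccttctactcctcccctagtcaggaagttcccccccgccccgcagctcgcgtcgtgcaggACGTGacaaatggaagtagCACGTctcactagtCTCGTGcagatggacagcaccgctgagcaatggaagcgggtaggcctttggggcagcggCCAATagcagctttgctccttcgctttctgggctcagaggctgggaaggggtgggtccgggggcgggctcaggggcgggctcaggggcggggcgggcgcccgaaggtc
Pdk4: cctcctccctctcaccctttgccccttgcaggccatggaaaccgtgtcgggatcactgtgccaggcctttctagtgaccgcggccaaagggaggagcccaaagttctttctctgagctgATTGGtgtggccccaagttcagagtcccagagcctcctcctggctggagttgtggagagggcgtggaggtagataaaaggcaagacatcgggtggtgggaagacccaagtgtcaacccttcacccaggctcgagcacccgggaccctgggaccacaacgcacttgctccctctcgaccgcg
Slc16a1: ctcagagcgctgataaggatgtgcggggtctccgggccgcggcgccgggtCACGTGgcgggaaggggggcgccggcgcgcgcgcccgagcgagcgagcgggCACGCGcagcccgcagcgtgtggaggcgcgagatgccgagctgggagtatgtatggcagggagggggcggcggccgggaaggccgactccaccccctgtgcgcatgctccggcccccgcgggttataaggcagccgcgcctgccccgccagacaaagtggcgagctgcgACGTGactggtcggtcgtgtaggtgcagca

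The Txnip window held 4 matches to CACGNG, of which a pair 5 bases apart spanned positions -85 to -69 from the start, and 2 CCAAT boxes at -137 to -133 and -102 to -98. That pair was found in 16 of 32851 RefSeq promoters (0.0487%), and among the 33 genes with a RefSeq promoter window only Txnip held it. Arrdc4 held 1 CACGTG at -193 to -188 and 6 CCAAT boxes. Over the 33 genes, CACGNG was present in a window of 20 (60.6%, against 30.3% of the 27025 genes in the RefSeq table), CACGTG in 9 (27.3% against 8.09%) and ACGTG in 21 (63.6% against 21.8%). CCAAT was present in 18 (54.5% against 41.1%), GGGCGG (the GC box) in 23 (69.7% against 38.2%) and TATAAA (the TATA box) in 2 (6.06% against 15.7%). A gene was counted if any of its windows held the match. The number of windows per gene and the types of gene were not matched between the 33 and the RefSeq table, so the shares have unlike bases. These matches describe letters in a window and say nothing of binding.

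The libraries differed in the number of peaks, with 9097, 31189 and 7353 in neonatal replicates 1, 2 and 3 and 72278 to 77002 in the adult libraries, and neonatal replicate 2 stood apart from the other 2 of its age. The lists give no read totals, so the depth behind each is unknown. Protein-coding genes with a promoter peak made up 26.4, 53.2 and 23.5% of 21627 in neonatal replicates 1 to 3 and 54.4 to 56.3% in the adult libraries. Of 8 OPC markers, 7 or 8 had a promoter peak in each neonatal library and 7 in each adult library. Of 8 markers of mature oligodendrocytes, 1 or 2 had one in each neonatal library and 8 in each adult library, and bases under peaks near their starts summed to 0.435 to 3.08 kb and to 37.0 to 45.3 kb. These markers were more often marked in the adult libraries, as were the glycolytic genes. The part of mature oligodendrocytes in the results was not tested. Endothelial markers had no promoter peak in a neonatal library and 2 of 8 (Pecam1 and Kdr) in each adult library, summing to 0.659 to 1.66 kb, and Cldn5, Cdh5, Flt1, Tek, Ly6c1 and Slco1a4 were at 0 throughout. For microglia the lists held an assigned promoter peak of 1 marker of 8 (Cx3cr1), in the adult libraries. Only 4 of the 8 had a start to count bases from. Of these Cx3cr1 was at 0 in every library, and adult replicate 1 had 0.181 kb at another marker. Promoter peaks of neuron markers numbered 0 to 5 of 8 in neonatal and 3 to 5 in adult libraries, and those of astrocyte markers 2 to 6 and 3 to 6. Fibroblast and mural markers had one at 0, 3 and 0 of 8 in neonatal replicates 1 to 3 and at 1, 2 and 1 in adult replicates 1 to 3.

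Promoter peaks, which are those annotated within 3000 bp of the nearest transcript start, were present at 15, 31 and 13 of the 35 genes in neonatal replicates 1, 2 and 3 and at 34, 34 and 33 in adult replicates 1, 2 and 3. The neonatal mean was 19.7 ± 9.87 genes and the adult mean 33.7 ± 0.577 (SD, n = 3 each), so that the adult libraries lay above the neonatal ones and were closer to each other. Neonatal replicate 2 (88.6% of the genes) was nearer to the adult libraries (94.3 to 97.1%) than to the other 2 neonatal libraries (42.9 and 37.1%). When each list was reduced to its 7353 strongest peaks by p-value, the number in the shortest list, the counts were 12, 13 and 13 in the neonatal and 14, 15 and 13 in the adult libraries, against 23.0 to 27.2% and 23.1 to 26.4% of protein-coding genes. At an equal number of peaks the 2 ages overlapped.

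**Figure D1:**
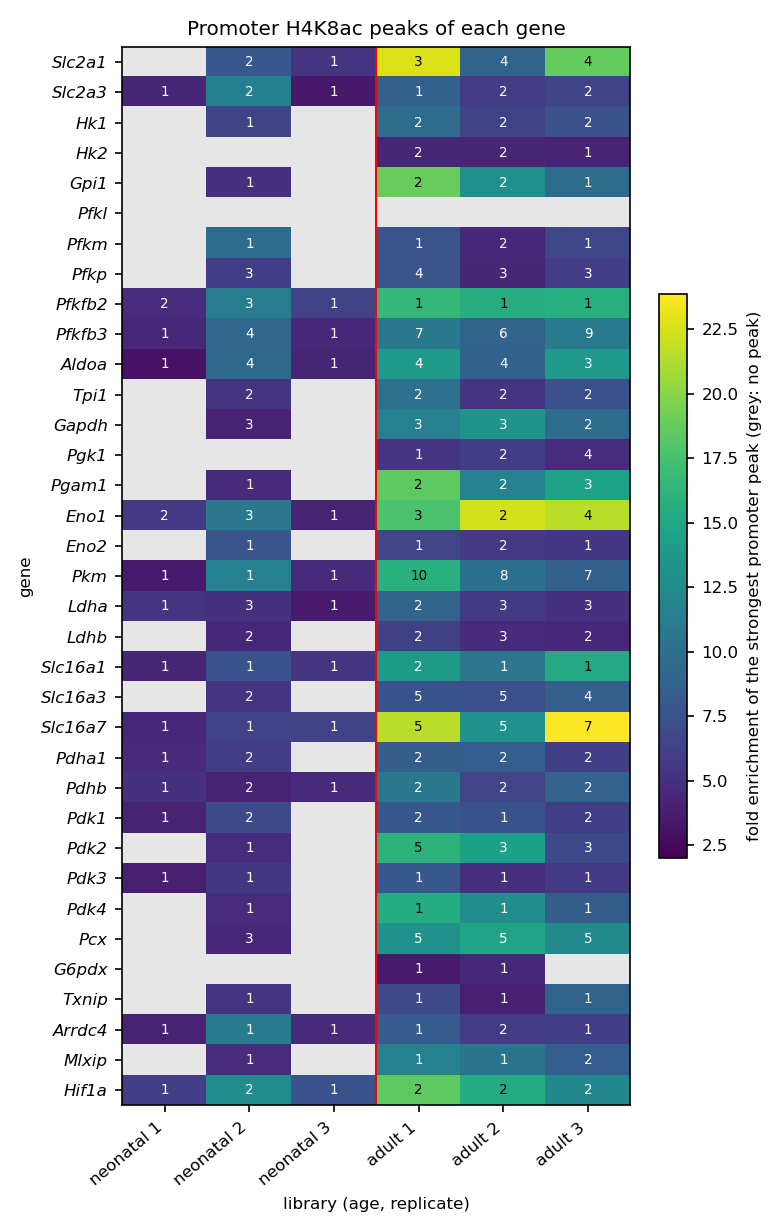
Promoter H4K8ac peaks of the 35 genes (rows) in the 6 libraries (columns). Colour gives the highest fold enrichment of a promoter peak as the authors' lists give it (grey, no promoter peak) and the digit the number of promoter peaks; 31 genes are coloured in neonatal replicate 2, against 15 and 13 in replicates 1 and 3.

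By library, 12 genes had a promoter peak in all 6 libraries: Slc2a3, Pfkfb2, Pfkfb3, Aldoa, Eno1, Pkm, Ldha, Slc16a1, Slc16a7, Pdhb, Arrdc4 and Hif1a (34.3% of the 35, against 21.5% of the 18548 genes with a promoter peak in any list). Another 15 had one in every adult and 1 neonatal library (42.9% against 24.4%), and for all 15 that library was neonatal replicate 2. They were Hk1, Gpi1, Pfkm, Pfkp, Tpi1, Gapdh, Pgam1, Eno2, Ldhb, Slc16a3, Pdk2, Pdk4, Pcx, Txnip and Mlxip. Slc2a1, Pdha1, Pdk1 and Pdk3 had peaks in every adult and 2 neonatal libraries (11.4% against 15.1%). G6pdx, the first enzyme of the pentose phosphate path, had one in adult replicates 1 and 2, and Pfkl, the liver form of phosphofructokinase, had none, nor any peak of another gene within 3000 bp of its start. No gene of the 35 had a promoter peak in neonatal libraries alone.

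A promoter peak in every adult and no neonatal library was found for 2 genes, Hk2 and Pgk1 (5.71% of the 35), where 12.1% of all genes with a promoter peak had this pattern. Without neonatal replicate 2 the count was 17 genes, and 36.3% of all genes then had the pattern. Neonatal peaks of these genes lay where adult cells also had peaks: of 88 neonatal promoter peaks, 88 overlapped a peak of at least 1 adult library and 84 (95.5%) one of every adult library. Over all genes the shares were 93.6% and 85.6% of 35351 neonatal promoter peaks.

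The bases covered by peaks within 3000 bp of a gene's start sites were counted in the same way in every library, and they grow with the length of the list. For 32 of the 35 genes every adult library was above every neonatal library, and for 0 the reverse held. Over the 13615 genes with any covered base, 72.5% were higher in every adult library and 0.213% in every neonatal library. Each of the 32 had an exact two-sided permutation p of 0.1, the smallest that 3 against 3 libraries can give (Benjamini-Hochberg adjusted p = 0.138 over 13615 genes), so no gene could pass 0.05. With the 7353 strongest peaks of each list, 11 genes had every adult library above every neonatal one. No share over all genes is given at this setting, so the 11 cannot be read as particular to these genes. The exceptions among the full lists were Eno2 and Ldha, whose ages overlapped, and Pfkl, which was at 0 throughout. The median difference, adult minus neonatal, was 1.00 kb over the 34 genes with a covered base (range 0.297 to 4.05 kb) and 0.769 kb over all genes (quartiles 0.441 and 1.15 kb).

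**Figure D2:**
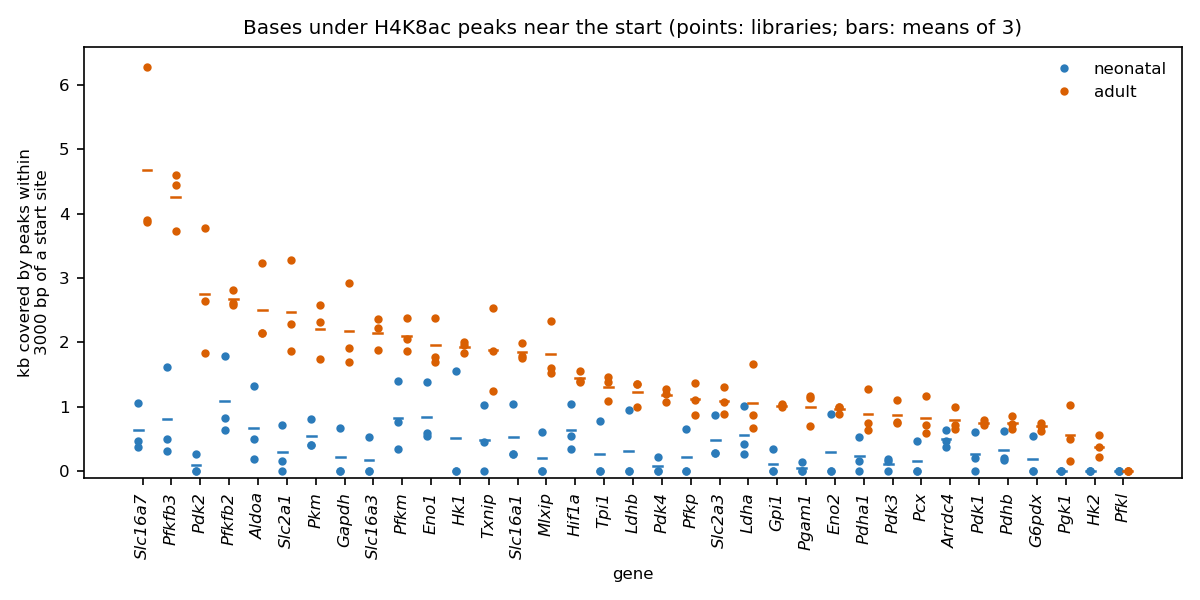
Kilobases covered by peaks within 3000 bp of the start sites of each gene, by library (points, 3 neonatal in blue and 3 adult in orange) with the mean of each age (bars), ordered by the adult mean. Slc16a7 and Pfkfb3, whose several starts give windows of 24.4 and 12 kb against 6 kb for a gene with 1 start, lie at the left with adult values of 3.74 to 6.28 kb, and Hk2 and Pfkl at the right with 0 to 0.564 kb.

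The authors' deposited table of differential sites, which carries a log2 fold change and an adjusted p-value per site but no values per library, listed a promoter site that was higher in adult cells for 26 of the 35 genes. Among the 18548 genes with a promoter peak the share was 64.4%, and 0.728% had a promoter site higher in neonatal cells, against 0 of the 35. The site with the smallest p-value of each gene had a median log2 fold change of 2.28 over the 26 genes (range 1.09 to 6.04) and of 1.77 over 12069 genes (quartiles 1.41 and 2.55) in the authors' deposited table. Of the 26, 19 lay above the median of all genes and 7 below it. Pfkl, Pfkm, Pfkp, Eno2, Ldha, Ldhb, Pdk1, G6pdx and Arrdc4 had no promoter site assigned to them in the table.

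Taking any site, the authors' deposited table held 84 sites of these genes, and 84 were higher in adult cells, as were 43634 of its 43888 sites. Sites whose matching peak lay over a transcript start had a median log2 fold change of 1.78 (29 sites, against 1.61 over all genes), those with a promoter peak beside a start 2.73 (27 sites, against 2.41) and those outside promoters 2.94 (28 sites, against 2.85). A neonatal peak was present at 82.8, 18.5 and 3.57% of these 3 classes of site (all genes, 79.8, 22.8 and 8.10%). Of 13 genes with a site over and a site beside a start, 10 had the higher median beside it, and the exceptions were Pdk2, Pgam1 and Tpi1. This count was not made over all genes, so it cannot be read as particular to these genes. By the medians and shares of the 3 classes, sites over starts were the ones that neonatal cells most often shared. They also had the smaller differences, in these genes and in all genes.

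**Figure D3:**
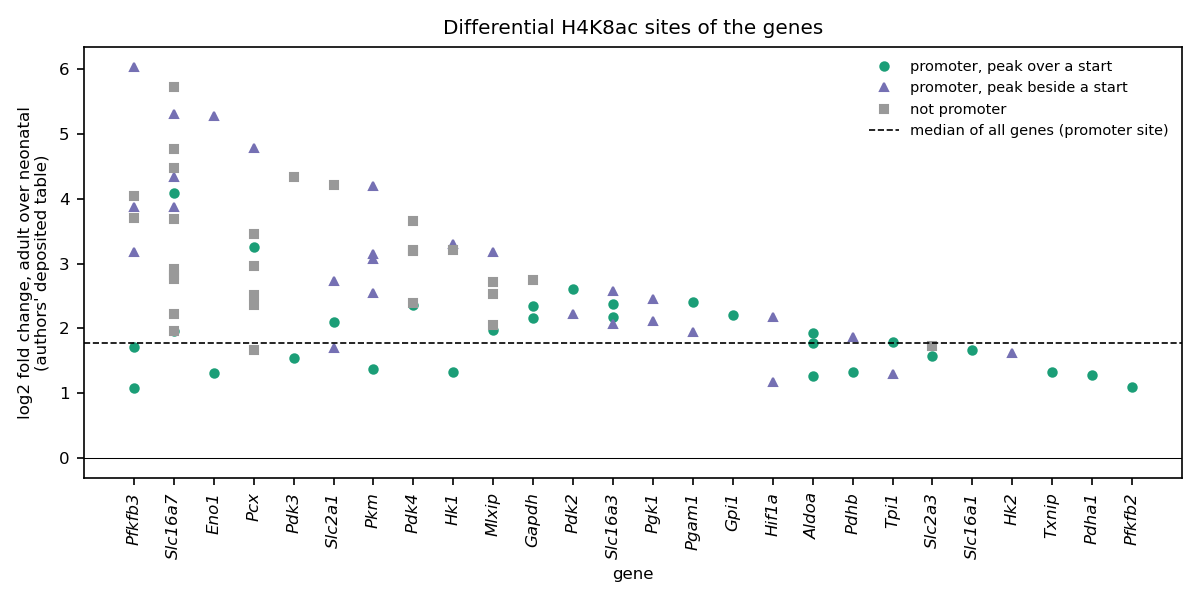
Log2 fold change, adult over neonatal, of every site of the genes in the authors' deposited table, by the position of the matching peak (circle, over a transcript start; triangle, within 3000 bp of one; square, not promoter), with the median of all genes as a dashed line at 1.77. Genes are ordered by their highest value, from Pfkfb3 with 6.04 to Pfkfb2 with 1.09, and no point lies below 0.

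In each library more genes had a peak just downstream of the start than on it. Over the 33 genes with a RefSeq start, the position with most genes covered lay 200 to 400 bp downstream in each library, ties included, with 10, 24 and 9 genes in neonatal replicates 1 to 3 and 28, 29 and 29 in adult replicates 1 to 3. At the start itself the numbers were 1, 8 and 3 and then 14, 11 and 18. Upstream of the start a lower maximum was reached by 2 and 13 genes in neonatal replicates 1 and 2 and by 21, 21 and 27 in the adult libraries. In neonatal replicate 3 up to 2 genes were covered upstream, with no maximum separate from the rise at the start. At 1500 bp downstream, 0 to 2 genes were covered in a neonatal and 4 to 8 in an adult library.

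**Figure D4:**
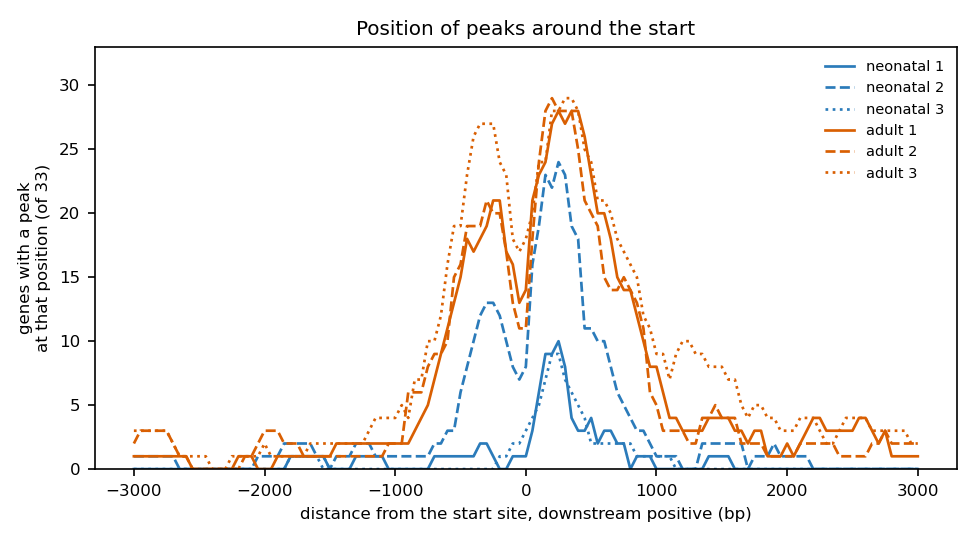
Number of the 33 genes with a RefSeq start that had a peak at each distance from the first start, in steps of 50 bp (negative, upstream), for each library (blue, neonatal; orange, adult; solid, dashed and dotted lines, replicates 1, 2 and 3). Every line is higher downstream than at the start, and adult lines reach 28 or 29 genes against 9 to 24 in neonatal lines.

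Glucose entry comes first in the pathway. Folds below are the authors' own values of single peaks, given per list, and were not compared between libraries. Slc2a1, the glucose transporter of most cells (chr4:119108745-119137330), had a highest promoter fold of 8.0 and 5.31 in neonatal replicates 2 and 3, none in replicate 1, and 22.7, 8.94 and 18.7 in adult replicates 1 to 3. Its covered length was 0, 0.714 and 0.161 kb in the neonatal and 2.28, 1.86 and 3.28 kb in the adult libraries, with no overlap between ages. A site beside its start was higher in adult cells in the authors' deposited table, with a log2 fold change of 2.73 and an adjusted p of 6.22e-08. Another site beside the start had 1.70 and the site over the start 2.10 in the authors' deposited table. Slc2a3, the high-affinity transporter of neurons, was covered over 0.283, 0.879 and 0.286 kb in the neonatal and 0.880, 1.31 and 1.08 kb in the adult libraries. The highest neonatal and the lowest adult value almost met. It was 1 of 2 genes of the 35, with Arrdc4, whose promoter peak was among the strongest 7353 in every neonatal and no adult library. That is a pattern of 4.59% of 9904 genes with such a peak. For neonatal replicate 3 the limit keeps the whole list. By p-value the Slc2a3 promoter peak ranked at the 40.9, 87.3 and 2.29 percentiles of genes in neonatal replicates 1 to 3. In adult replicates 1 to 3 it ranked at the 44.8, 34.9 and 41.8 percentiles, so the ages overlapped.

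Hexokinases trap glucose as glucose 6-phosphate. Hk1, the constitutive brain form, had 0, 1.56 and 0 kb under peaks near its starts in the neonatal libraries and 1.95, 2.00 and 1.84 kb in the adult libraries. Hk2, the inducible form (chr6:82725025-82774454), was at 0 in the 3 neonatal libraries and at 0.367, 0.564 and 0.212 kb in the adult libraries. The adult peaks of Hk2 were weak, with highest folds of 4.34, 4.35 and 4.11, at the 11.8, 14.3 and 15.8 percentiles of genes with a promoter peak in their lists by p-value. Its promoter site in the authors' deposited table had a log2 fold change of 1.62 (adjusted p = 0.0351). In the window printed above, peaks covered 165, 0 and 12 of the 300 bases in adult replicates 1 to 3. Gpi1, which converts glucose 6-phosphate to fructose 6-phosphate, was covered over 0, 0.348 and 0 kb and then 1.04, 1.02 and 0.997 kb, and had a site at a log2 fold change of 2.21 (adjusted p = 3.97e-06) in the authors' deposited table.

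Phosphofructokinase commits the sugar to glycolysis, and its muscle and platelet forms carried the promoter peaks while the liver form carried none. Pfkp was covered over 0, 0.652 and 0 kb in the neonatal and 1.11, 0.870 and 1.37 kb in the adult libraries. Pfkm was assigned a promoter peak in neonatal replicate 2 and each adult library. Peaks within 3000 bp of another of its starts were assigned to the neighbouring gene Senp1 in all 6 libraries, so that by position Pfkm had a peak in 3 neonatal libraries.

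Pfkfb2 and Pfkfb3 make and remove the fructose bisphosphate that activates phosphofructokinase, and stood at the 2 ends of the order of sites. Pfkfb3 (chr2:11471430-11554071) had 1, 4 and 1 promoter peaks in the neonatal and 7, 6 and 9 in the adult libraries. They covered 0.495, 1.62 and 0.306 kb near its starts in neonatal replicates 1 to 3 and 3.74, 4.45 and 4.60 kb in adult replicates 1 to 3. The lowest adult value was above the highest neonatal value. Its site at chr2:11499161-11499560, which had a peak in 2 adult and no neonatal libraries, had the highest log2 fold change of the 26 genes in the authors' deposited table, 6.04 (adjusted p = 6.35e-07), while its 2 sites over a start had 1.08 and 1.71. Pfkfb2 (chr1:130689043-130729253) was covered over 0.833, 1.78 and 0.636 kb and then 2.58, 2.62 and 2.81 kb. The adult libraries each had 1 broad peak there, of 2584, 2615 and 2815 bp, where the strongest neonatal peak was 299, 430 and 369 bp wide. Its site had the lowest value of the 26 in the authors' deposited table, a log2 fold change of 1.09 (adjusted p = 0.0286).

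Aldolase and triose phosphate isomerase split the sugar and interconvert the products. Aldoa was covered over 0.188, 1.32 and 0.502 kb in the neonatal and 2.14, 2.15 and 3.23 kb in the adult libraries, and Tpi1 over 0, 0.774 and 0 kb and then 1.38, 1.08 and 1.47 kb. Both had a site with a log2 fold change of 1.78 in the authors' deposited table (adjusted p = 2.16e-04 for Aldoa and 0.00324 for Tpi1), close to the median of all genes. Gapdh, the dehydrogenase often used as a reference gene, was covered over 0, 0.672 and 0 kb and then 1.92, 1.70 and 2.92 kb. Its site had a log2 fold change of 2.16 (adjusted p = 2.77e-06) in the authors' deposited table.

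Pgk1, which makes the first ATP of glycolysis (chrX:106187100-106203699), was at 0 in the 3 neonatal libraries and at 0.157, 0.497 and 1.02 kb in adult replicates 1 to 3. The adult libraries differed among themselves by more than the lowest of them differed from the neonatal ones. Highest adult folds were 5.33, 5.96 and 4.86, at the 22.8, 29.7 and 21.7 percentiles of genes with a promoter peak in their lists. A site in the authors' deposited table lay at chrX:106186580-106186979, overlapping the window printed above, with a log2 fold change of 2.45 (adjusted p = 2.58e-04). Another Pgk1 site beside the start had 2.11 in the authors' deposited table. Pgk1 and Hk2 had weak peaks in adult cells, and neither was among the 7353 strongest peaks of any library.

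Pgam1, the mutase that moves the phosphate of phosphoglycerate, was covered over 0, 0.138 and 0 kb and then 1.13, 0.708 and 1.16 kb, with a log2 fold change of 2.41 (adjusted p = 7.03e-07) in the authors' deposited table. Eno1, the ubiquitous enolase (chr4:150236708-150248879), had highest folds of 5.64, 10.7 and 4.08 in the neonatal and 17.7, 22.4 and 21.5 in the adult libraries, and was covered over 0.551, 1.38 and 0.597 kb and then 1.78, 1.70 and 2.38 kb. Its site over the start had a log2 fold change of 1.31 and its site at chr4:150238697-150239096 one of 5.28 (adjusted p = 2.28e-05) in the authors' deposited table. Eno2, the neuronal enolase, had 0.893 kb in neonatal replicate 2, 0 in the other 2, and 0.891, 0.991 and 1.00 kb in the adult libraries, so its ages overlapped, and it had no promoter site in the table.

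Pkm, pyruvate kinase, makes pyruvate in the last step (chr9:59656576-59679372). It had 1 promoter peak in each neonatal library and 10, 8 and 7 in adult replicates 1 to 3, covering 0.413, 0.812 and 0.413 kb and then 2.32, 1.74 and 2.58 kb near its RefSeq starts. The neonatal peaks lay over the first start, and adult peaks continued along the gene, where the annotation has further transcript starts and so calls them promoter. The site over the start had a log2 fold change of 1.37 and the site at chr9:59663024-59663423 one of 4.20 (adjusted p = 8.17e-06) in the authors' deposited table.

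**Figure D5:**
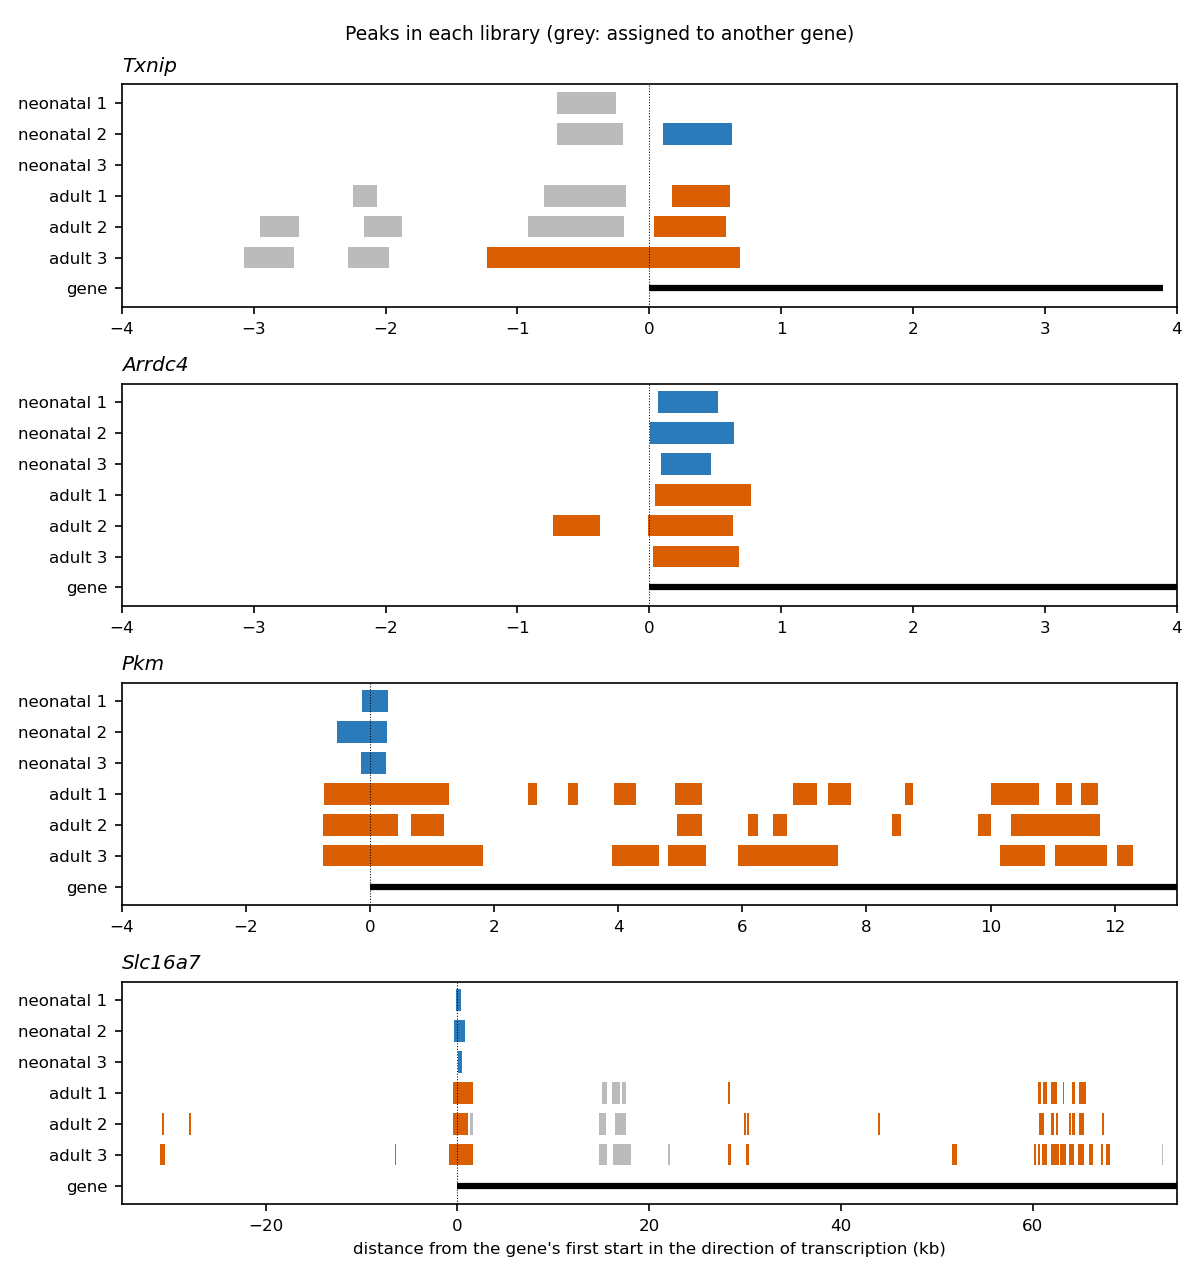
Peaks of each library around 4 genes, as bars along the distance from the gene's first start in the direction of transcription (kb; blue, neonatal; orange, adult; grey, assigned to another gene; black, the gene). Txnip and Arrdc4 have peaks on one or both sides of the start in either age, while Pkm and Slc16a7 have neonatal peaks at the start only and adult peaks along the gene.

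Lactate dehydrogenase interconverts pyruvate and lactate, and Ldha was 1 of the 2 genes whose covered lengths overlapped between ages. Ldha (chr7:46842274-46855627), the form that favours lactate, was covered over 0.417, 1.00 and 0.270 kb in the neonatal and 0.665, 0.866 and 1.67 kb in the adult libraries. Neonatal replicate 2 lay above adult replicates 1 and 2. Among the 7353 strongest peaks Ldha had one in 2 neonatal and 0 adult libraries, as had Pdhb and Pdk1. That limit keeps the whole list of neonatal replicate 3, where the Ldha peak ranked at the 5.88 percentile of genes. Ldhb, the form that favours pyruvate, was covered over 0, 0.943 and 0 kb and then 1.00, 1.35 and 1.36 kb, and neither gene had a promoter site in the authors' deposited table.

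The monocarboxylate transporters carry lactate. Slc16a1 (MCT1), the transporter of oligodendrocyte lineage cells, was covered over 0.260, 1.04 and 0.273 kb and then 1.80, 1.76 and 1.99 kb, and its window printed above was covered over 0, 300 and 61 bases in the neonatal and over all 300 in each adult library. Its site over the start had a log2 fold change of 1.67 (adjusted p = 1.94e-04) in the authors' deposited table and had a peak in all 6 libraries. Slc16a3 (MCT4), the exporter of glycolytic cells, was covered over 0, 0.531 and 0 kb and then 1.88, 2.36 and 2.22 kb, with a value of 2.37 (adjusted p = 6.10e-05) in the authors' deposited table.

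Slc16a7 (MCT2), the high-affinity transporter known from neurons (chr10:125219270-125389586), had the largest difference in covered length of the 35 genes, over a window that is also the widest (24.4 kb, from 5 starts). Near its starts 0.460, 1.06 and 0.378 kb were covered in neonatal replicates 1 to 3 and 3.90, 3.88 and 6.28 kb in adult replicates 1 to 3, with highest folds of 4.47, 6.41 and 6.32 and of 21.6, 13.1 and 23.9. It was also the gene with most peaks outside promoters, with 0 in each neonatal library and 8, 11 and 18 in the adult libraries, covering 3.01, 4.50 and 7.18 kb. They fell into 23 regions, of which 4 were present in every adult library. A site at chr10:125327091-125327490 had a log2 fold change of 4.33 (adjusted p = 1.09e-07) in the authors' deposited table, and its 9 sites outside promoters had 1.96 to 5.72. Every library had a Slc16a7 promoter peak, and the adult libraries had more bases under peaks near its starts and more peaks along the gene.

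Pyruvate dehydrogenase links glycolysis to mitochondria. Its E1 subunits Pdha1 and Pdhb were covered over 0.160, 0.530 and 0 kb and 0.202, 0.618 and 0.172 kb in the neonatal libraries, and over 0.634, 0.754 and 1.27 kb and 0.729, 0.655 and 0.860 kb in the adult libraries. Pdha1 (chrX:160122219-160138430) had promoter folds of 4.67 and 6.01 in neonatal replicates 1 and 2 and of 8.44, 8.51 and 6.08 in the adult libraries. Its site was the second lowest of the 26 in the authors' deposited table, with a log2 fold change of 1.28 (adjusted p = 0.00728), and that of Pdhb had 1.87 (adjusted p = 0.00156).

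The 4 pyruvate dehydrogenase kinases, which switch the complex off, differed among themselves. Pdk1 was covered over 0.199, 0.601 and 0 kb and then 0.790, 0.711 and 0.746 kb and had no promoter site in the authors' deposited table. Pdk3 (chrX:93764616-93832150) was covered over 0.151, 0.182 and 0 kb and then 0.745, 0.762 and 1.10 kb. Its promoter folds were 3.85 and 5.57 in neonatal replicates 1 and 2 and 7.95, 5.00 and 5.67 in the adult libraries. Its promoter site had a log2 fold change of 1.54 (adjusted p = 0.00333), the fourth lowest of the 26, and a site outside the promoter had 4.33, both in the authors' deposited table. Pdk2 had the largest difference of the kinases near the start, with 0, 0.263 and 0 kb in the neonatal and 2.65, 1.84 and 3.77 kb in the adult libraries, and a value of 2.61 (adjusted p = 2.54e-06) in the authors' deposited table.

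Pdk4, the kinase induced by fasting and fatty acids (chr6:5483351-5496278), was covered over 0, 0.216 and 0 kb in the neonatal and 1.07, 1.27 and 1.19 kb in the adult libraries near its start. The promoter window printed above was covered over 0 bases in each neonatal and over all 300 in each adult library, and its site had a log2 fold change of 2.36 (adjusted p = 1.10e-06) in the authors' deposited table. Outside the promoter it had 0 peaks in each neonatal library and 8, 9 and 9 in the adult libraries, over 5.00, 4.49 and 7.14 kb. Of its 8 regions, 3 were present in every adult library, at chr6:5444402-5446588, chr6:5446747-5449784 and chr6:5450012-5450732. Their centres lay 50.8, 48.0 and 45.9 kb from the start, beyond the gene's end, and the strongest Pdk4 peak of adult replicate 3 was the middle one, with a fold of 11.7, annotated as distal intergenic. The 4 sites of Pdk4 outside promoters had log2 fold changes of 2.4 to 3.66 in the authors' deposited table.

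Pcx, pyruvate carboxylase, which refills the citric acid cycle (chr19:4510472-4621752), had promoter peaks in neonatal replicate 2 and every adult library, with highest folds of 4.56 and of 13.3, 14.7 and 12.4. The strongest peak of adult replicate 2 lay at chr19:4557998-4561266 and that of adult replicate 3 at chr19:4556801-4561296, over a transcript start within the gene, where neonatal replicate 2 had a peak of 203 bp. The site there, at chr19:4559410-4559809, had the smallest adjusted p among the promoter sites of the 26 genes, 4.29e-10 in the authors' deposited table, with a log2 fold change of 3.26. Outside promoters it had 0 peaks in each neonatal and 3, 3 and 7 in the adult libraries, over 0.445, 1.03 and 3.01 kb, and none of its 8 regions was shared by the 3 adult libraries.

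Txnip (chr3:96557957-96561857) had an assigned promoter peak in neonatal replicate 2, with a fold of 5.32, and in adult replicates 1 to 3, with folds of 6.87, 3.91 and 9.06. By p-value they ranked at the 28.8 percentile of genes with a promoter peak in neonatal replicate 2 and at the 32.9 and 16.1 percentiles in adult replicates 1 and 2, and near the middle, at the 53.0 percentile, in adult replicate 3. None was among the 7353 strongest of its list. In neonatal replicate 2 and adult replicates 1 and 2 the peaks nearest the start formed 2 blocks, 1 on either side of the paired E-boxes and CCAAT boxes printed above. The upstream block was assigned to the neighbouring gene model Gm15441 in every library that had it apart from adult replicate 3, where a single peak at chr3:96556730-96558643 spanned both blocks and was assigned to Txnip. Any peak within 3000 bp of the start, whatever its assigned gene, was found in neonatal replicates 1 and 2 and in each adult library, but not in neonatal replicate 3.

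Bases under peaks within 3000 bp of the Txnip start were 0.449, 1.02 and 0 kb in neonatal replicates 1 to 3 and 1.25, 1.86 and 2.53 kb in adult replicates 1 to 3. The ages did not overlap, and the spread within each was wide (0.490 ± 0.512 kb and 1.88 ± 0.640 kb, SD, n = 3 each). Of the 300 bases of the window, 0, 48 and 0 were covered in the neonatal and 72, 79 and 300 in the adult libraries. The site of Txnip, at chr3:96557462-96557861, had a log2 fold change of 1.33 (adjusted p = 0.0244) in the authors' deposited table, at the 19.2 percentile of genes with a promoter site. A site assigned by position rather than by gene name had 2.41 (adjusted p = 9.62e-04) in the authors' deposited table.

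Arrdc4 (chr7:68736994-68749238) had a promoter peak in all 6 libraries, just downstream of the start, with highest folds of 4.16, 10.9 and 4.67 in the neonatal and 8.39, 5.81 and 5.99 in the adult libraries. It was covered over 0.460, 0.637 and 0.381 kb and then 0.723, 0.997 and 0.650 kb, the smallest difference of the 34 genes with a covered base (0.297 kb), and the nearest values of the 2 ages almost met. By p-value its promoter peak ranked at the 24.0, 84.7 and 66.6 percentiles of genes in the neonatal and at the 47.7, 40.9 and 39.0 percentiles in the adult libraries, so the ages overlapped. Arrdc4 had no site in the authors' deposited table. Of the 2 arrestin genes, Arrdc4 was thus marked in every library, and Txnip was marked in fewer neonatal libraries.

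Mlxip (chr5:123394521-123457932), the glucose-sensing factor known as MondoA, had highest promoter folds of 4.81 in neonatal replicate 2 and of 11.5, 10.5 and 8.5 in the adult libraries. It was covered over 0, 0.606 and 0 kb and then 1.53, 1.59 and 2.34 kb. Its site beside a start had a log2 fold change of 3.18 (adjusted p = 4.59e-05) in the authors' deposited table. Over its start Mlxip had another site, with a log2 fold change of 1.97 in the authors' deposited table. Outside promoters it had 0, 1 and 0 peaks in the neonatal and 5, 5 and 4 in the adult libraries, over 2.76, 2.60 and 2.98 kb in the latter. Of its 5 regions 4 were present in every adult library, and 1 of these, chr5:123391182-123391613, overlaps the site beside a start. Hif1a, the oxygen-regulated subunit of the hypoxia factor, was covered over 0.541, 1.05 and 0.349 kb and then 1.40, 1.38 and 1.55 kb, and its promoter peak ranked high in each list (71.2 to 97.0 percentiles in the neonatal and 84.2 to 92.8 in the adult libraries). Its promoter site with the smaller p-value had a log2 fold change of 2.17 (adjusted p = 3.49e-06) in the authors' deposited table. Its other promoter site, which had a peak in every library, had 1.17 in the authors' deposited table.

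G6pdx (chrX:74409483-74428880) had assigned promoter peaks with folds of 3.61 and 4.54 in adult replicates 1 and 2. Peaks at its start were assigned to the overlapping gene Ikbkg in neonatal replicate 2 and every adult library, and by position it was covered over 0, 0.542 and 0 kb and then 0.699, 0.628 and 0.753 kb.

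At an equal number of peaks, membership in the strongest 7353 is a rank within a list, and lists of different lengths show no change by it. The limit keeps all of the shortest list, neonatal replicate 3, and a small part of each adult list. A promoter peak among the 7353 strongest of every adult and no neonatal library was found for 4 genes, Gpi1, Pgam1, Pcx and Mlxip. This is a pattern of 4.12% of 9904 genes. The reverse was found for Slc2a3 and Arrdc4, as given above, and for 4.59% of the 9904. The 9904 are genes with such a peak in any list, while 11 of the 35 had none, so the shares have unlike bases.

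Peaks outside promoters numbered 0, 9 and 0 for the 35 genes in the neonatal libraries and 35, 41 and 55 in the adult libraries. They made up 13.4% of the genes' peaks in neonatal replicate 2 and 28.2, 31.8 and 38.2% in the adult libraries, against 32.5% and 56.1, 56.9 and 59.6% of all peaks, so these genes had the smaller share outside promoters in each library. Among the 7353 strongest peaks the difference between the mean numbers, 40.7 peaks in the full lists, was 0.667 (adult mean 1 ± 1, neonatal mean 0.333 ± 0.577, SD, n = 3 each). In the full lists they formed 68 regions, of which 19 were present in every adult library and 15 of these in no neonatal one. No share over all genes is given for such regions, so the 15 cannot be read as particular to these genes. Over all genes, neonatal replicates 1 to 3 had 1342, 10124 and 822 peaks outside promoters, against 40548 to 45860 in the adult libraries. Slc16a7, Pdk4, Mlxip and Pcx had the most peaks of this kind.

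Another 70 genes of the same pathways, which are not among the 35, were read in the same way. A promoter peak was present at 29, 56 and 20 of them in the neonatal and at 59, 54 and 55 in the adult libraries, 60 had one in any library and 15 in all 6. In the authors' deposited table, 44 of these had a promoter site higher in adult cells and 1 higher in neonatal cells, and the median log2 fold change over the 45 was 1.75, near that of all genes. Of the 4 other arrestin-domain genes, Arrdc1 had no promoter site and Arrdc5 no promoter peak. Arrdc3 had a log2 fold change of 6.10 (adjusted p = 4.78e-07) and Arrdc2 one of 3.83 (adjusted p = 6.79e-06) in the authors' deposited table. Arrdc2 was covered over 313, 423 and 0 bp in the neonatal and 3187, 3465 and 4068 bp in the adult libraries. Arrdc3 had a promoter peak in every library, with highest folds of 6.87, 16.0 and 4.67 in the neonatal and 12.9, 8.27 and 13.3 in the adult libraries. It was covered over 305, 1989 and 309 bp and then 3832, 3429 and 5438 bp.

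The chaperones of the lactate transporters differed in direction. Bsg (basigin), which partners Slc16a1 and Slc16a3, was covered over 159, 326 and 0 bp in the neonatal and 1944, 1109 and 1756 bp in the adult libraries, and had a log2 fold change of 4.80 (adjusted p = 2.71e-08) in the authors' deposited table. Emb (embigin), known as the partner of Slc16a7, was covered over 533, 791 and 433 bp in the neonatal and 0, 0 and 161 bp in the adult libraries, and had a log2 fold change of -2.03 (adjusted p = 6.90e-04) in the authors' deposited table. Each neonatal library was above each adult library for Emb, a pattern of 0.213% of all genes and of no gene of the 35. Emb was singled out from the 70 as the 1 gene with a promoter site higher in neonatal cells. Covered bases were not counted over the 70, so the share of all genes does not measure how unusual Emb is.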

How the data were processed

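The 35 genes and the other lists were chosen with earlier results of these data known. The submitters' processing notes name Trim Galore, Bowtie2 2.4.5, SAMtools, deepTools, MACS2, DiffBind, ChIPseeker and the build GRCm38, without giving their roles. Peaks were called per library, and per the file headers each carries a score, a fold enrichment (a ratio) over background, its p-value and its q-value (both as −log10) and an annotation. For nearly all peaks the deposited score is the q-value column times 10 without decimals, and the largest q-value of a list was 0.0427 to 0.0489. The authors' deposited table gives a log2 fold change, p-value and adjusted p-value per site, with no direction named. Its positive sites overlapped adult replicate 3 in 96.7% and neonatal replicate 2 in 27.8%, its negative sites in 18.9% and 98.0%, so positive was read as higher in adult cells. A site took the gene and class of the deposited peak that shared most bases with it.

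Peaks were counted by assigned gene and class, and bases under peaks were summed within 3000 bp of each start of the RefSeq promoter table (GRCm38.p6), or of the lists' transcripts for Slc2a3 and Slc16a7, which that table lacks and whose windows are not printed. ChIPseeker's nearest-start rule makes peaks at internal starts promoter peaks. Covered bases were compared with an exact two-sided permutation test over 20 arrangements and Benjamini-Hochberg adjustment, computed in Python 3.11.15 (scipy 1.17.1, pandas 2.3.3, numpy 2.4.6), and the coverage step was tested on simulated data. Peak folds are the authors' own and are given per list, with no comparison between lists. Values by library were given for Txnip, Arrdc4, the genes with peaks in 1 age only, the 4 highest and 4 lowest by site, the 4 with most peaks outside promoters and Pfkl, and for others to complete a pathway step. Alternatives were an equal number of peaks, a q-value limit of 0.005, a promoter limit of 1000 bp, peaks by position, merged peaks, an adjusted p limit of 0.005, another choice of site, a replicate block and each library left out.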

Additional observations from a re-analysis of the deposited data

How the results depend on the processing

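With the 7353 strongest peaks of each list, the difference between ages in genes with a promoter peak moved from 14 to 1.33, the genes with adult-only promoter peaks from 2 to 4, the genes with non-overlapping coverage from 32 to 11 and the difference in peaks outside promoters from 40.7 to 0.667. Calling a promoter only within 1000 bp made the last 60.7, and merging peaks within 1000 bp made it 23; these 2 only move or join peaks. Without neonatal replicate 2 the adult-only genes were 17. Leaving out 1 library at a time gave ranges of 10.7 to 19.7 for the difference in genes with a promoter peak. Those for adult-only genes were 2 to 17 (over all genes, 12.2 to 36.3%). Those for non-overlapping coverage were 32 to 34 (over all genes, 72.5 to 85.7%), and for the difference in other peaks 35 to 45. At an adjusted p under 0.005 the authors' deposited table kept 21 genes against 26, and by position 27, and the median log2 fold change stayed between 1.97 and 2.41. The median over all genes moved too. It was 2.10 over 8353 genes at an adjusted p under 0.005, beside 2.41 for the 21. Within 1000 bp it was 1.69 over 11127 genes, beside 2.03. With the site of largest absolute change it was 1.83 over 12069 genes, beside 2.35. Each difference stayed above 0, but at an equal number of peaks the ages overlapped in genes with a promoter peak. Same-numbered libraries of the 2 ages did not deviate together in covered bases (r of -0.0224, 0.003 and 0.0517 over 13615 genes). This measure showed no pairing by number, but it cannot show how the libraries were prepared. With the replicate block the values were 14, 33 and 40.7. The depth of the lists is unknown, and absence of a peak in a short list does not show absence of the mark.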

Other observations

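Among the 9 peaks outside promoters in neonatal replicate 2, 5 regions had no counterpart in an adult list. They were 1 beyond Hk2 (chr6:82722997-82723147), 1 within it (chr6:82740443-82740589), 2 beyond Eno1 (chr4:150250588-150251234 and chr4:150251535-150251826) and 1 near Ldha (chr7:46838101-46838356). They were 147 to 647 bp wide and were present in 1 library of 6.

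The other pathway genes held further values that no comparison above used. Hif3a, a hypoxia factor paralog, was covered over 0, 198 and 0 bp in the neonatal and 3957, 4071 and 5606 bp in the adult libraries, with a log2 fold change of 3.71 (adjusted p = 1.25e-08) in the authors' deposited table. Gpd2, the mitochondrial glycerol phosphate dehydrogenase, had a log2 fold change of 4.27 (adjusted p = 1.20e-05) and Mpc1, a subunit of the mitochondrial pyruvate carrier, one of 2.96 (adjusted p = 0.00120), both in the authors' deposited table. Mlx, the partner of Mlxip, was covered over 309, 659 and 0 bp in the neonatal and 1303, 933 and 1321 bp in the adult libraries. These genes were named after their values were seen.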
